A study of Homo sapiens with 16 samples.

Results

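K1 cells treated with nutlin on top of GSK2830371 were compared with K1 cells treated with GSK2830371 alone, which gives the effect of nutlin in cells whose PPM1D is already inhibited. The libraries were taken by line and treatment as labelled: 2 of the combination and 2 of GSK2830371, which makes 4 of the 16 libraries of the series, 8 of them from K1. The study asked how MDM2 and PPM1D, which both restrain p53, bear on transcription in the papillary thyroid carcinoma lines K1 and TPC1. Both groups were exposed to 25 µM GSK2830371 for 24 h, and the combination also held 10 µM nutlin-3a. K1 cells in 0.2% DMSO and in 10 µM nutlin alone, again with 2 libraries each, and the TPC1 libraries of the same treatments serve for comparison. Polyadenylated RNA was sequenced with its strand kept, and every value starts from a read count per gene.

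K1 is an established line of human thyroid carcinoma cells that carries wild type p53, so each group is a single line in culture. Library totals were 31717596 and 30241713 counts for GSK2830371 and 31859207 and 32232970 for the combination. *FN1*, which encodes fibronectin, took 6.62% and 6.69% of the counts under GSK2830371 and 6.87% and 6.75% under the combination. The variance between replicates was 8.16 times that of counting alone for GSK2830371 and 4.96 times for the combination. The labels do not say how replicates were made, while the study's general statement is of independently prepared replicates, and p values measure the spread between these libraries.

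The thyroid label was checked against 14 thyroid genes, of which 9 were detected well enough to be tested. *PAX8*, a transcription factor of the thyroid lineage, stood at 765 and 778 CPM (counts scaled by TMM to a common library size) under GSK2830371 and at 766 and 798 CPM under the combination. *FOXE1*, its partner in thyroid development, stood at 38.5 and 36.6 against 30.7 and 32.1 CPM. *TG*, which encodes thyroglobulin, was low in all 4 libraries, at 3.44 and 3.49 against 6.1 and 6.01 CPM. *NKX2-1* lay under 1 CPM in every library, and *TSHR*, *DIO1*, *DIO2* and *IYD* had too few counts to be tested. Defining genes of hormone synthesis were thus low or absent, while *PAX8* and *FOXE1* were expressed.

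MDM2 binds p53, blocks its activation domain and marks it for degradation, and nutlin occupies the pocket of MDM2 that p53 would fill. PPM1D is a phosphatase that removes activating phosphates from p53 and from the kinases of the DNA damage response, and GSK2830371 inhibits it. Freed p53 activates genes of growth arrest, apoptosis and repair, and through p21 it lets the DREAM and RB complexes silence genes of the cell cycle.

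Adding nutlin to GSK2830371 raised the RNA of p53 target genes and lowered that of genes for DNA replication and mitosis. A smaller group of genes listed for the ATF4 stress response rose as well, and their control by ATF4 was not tested. Of 15900 genes tested, 1002 (6.30%) were upregulated and 1073 (6.75%) were downregulated, where a call needs an adjusted p under 0.05 and a fold change above 1.5 (the quasi-likelihood test of edgeR with Benjamini-Hochberg). Changes past 2-fold were called for 389 upregulated and 472 downregulated genes, and changes past 4-fold for 138 and 98. The median log2 fold change over all genes tested was 0.00. DESeq2 called 855 genes higher and 901 lower.

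The fold changes followed the base composition of the genes. Among the fifth of genes with the lowest GC content (median 38.1%), the median log2 fold change was 0.22, with 347 genes upregulated and 151 downregulated. In the fifth with the highest GC content (median 61.1%) it was -0.14, with 73 upregulated and 252 downregulated. Between the GSK2830371 replicates alone, the medians of these gene groups were -0.14 and 0.04, and for nutlin against DMSO they were -0.07 and 0.00. Removing the trend with GC content and length left 843 upregulated and 914 downregulated genes.

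**Figure D1:**
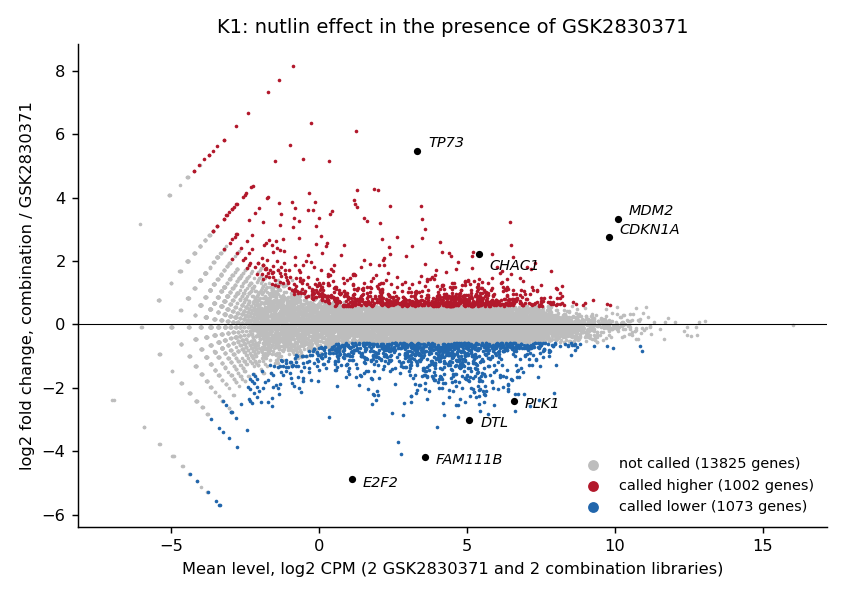
Each point is a gene tested in K1, with the log2 of the mean CPM of the 4 libraries on the x axis. The y axis is the log2 fold change of the combination against GSK2830371. Red points are the 1002 upregulated genes, blue points the 1073 downregulated genes, and grey points the genes not called.

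Most p53 targets rose. Of 86 listed targets, 80 were tested, and 64 were upregulated and 1 was downregulated, with a median log2 fold change of 1.15 against 0.00 over all genes. These are 80% and 1.25% of the targets tested, against 6.30% and 6.75% of all genes. By role, 7 of 10 targets that feed back on p53 were upregulated (median 1.25), as were 10 of 13 of growth arrest (median 1.47). The counts were 12 of 17 for apoptosis (median 1.08), 5 of 7 for repair (median 1.05) and 30 of 33 for other functions (median 1.19).

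*MDM2* (chromosome 12, 69201957 to 69239324 in GRCh37), the ubiquitin ligase that nutlin blocks and itself a target of p53, stood at 190 and 210 CPM under GSK2830371 and at 1890 and 2100 CPM under the combination. Its log2 fold change was 3.32 ± 0.0689 (standard error; adjusted p = 4.751e-12, edgeR quasi-likelihood test, Benjamini-Hochberg). Both combination libraries lay far above both GSK2830371 libraries. *CDKN1A*, whose product p21 inhibits cyclin-dependent kinases, stood at 232 and 229 CPM against 1530 and 1570 CPM, a log2 fold change of 2.75 ± 0.0599. Again the groups did not overlap, and replicates lay close together. *BTG2*, an antiproliferative gene, stood at 17.7 and 16.6 against 151 and 169 CPM, with a log2 fold change of 3.22 ± 0.0804.

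Among genes of the p53 family and its regulators *TP73*, which encodes the p53 relative p73, rose as well. It stood at 0.414 and 0.466 CPM under GSK2830371 and at 18.6 and 20.6 CPM under the combination, a log2 fold change of 5.47 ± 0.174. The gene was near silent in both GSK2830371 libraries and clearly expressed in both combination libraries. *PPM1D*, the phosphatase that GSK2830371 inhibits and a p53 target in its own right, rose from 18.3 and 18.6 to 40.4 and 46.4 CPM, by 1.23 ± 0.0895 in log2 units. Of 9 genes of the p53 family and its regulators, 3 were upregulated and 0 downregulated (median 0.28). The shares were 33.3% and 0%, against 6.30% and 6.75% of all genes. All 3 also stand on the p53 target list, and of the 5 genes not shared with it 0 were called in either direction (median -0.10).

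Several other targets started low and became clearly detectable. *ACER2*, which encodes a ceramidase of the Golgi, went from 2 and 2.13 to 21 and 20.1 CPM, a log2 fold change of 3.31. *RRAD*, a small GTPase of the RAS superfamily, went from 0.7 and 0.765 to 9.29 and 10.4 CPM, a log2 fold change of 3.74. In each of these genes both combination libraries lay above both GSK2830371 libraries. *INPP5D*, which encodes an inositol phosphatase, went from 0.509 and 0.266 to 7.4 and 7.62 CPM. *KANK3* rested on 2 and 2 counts under GSK2830371 against 74 and 87 under the combination, too few at the start for an exact fold. *SESN2*, a sestrin that restrains mTORC1, was well expressed from the start and rose from 64 and 67.3 to 219 and 224 CPM, by 1.76.

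**Figure D2:**
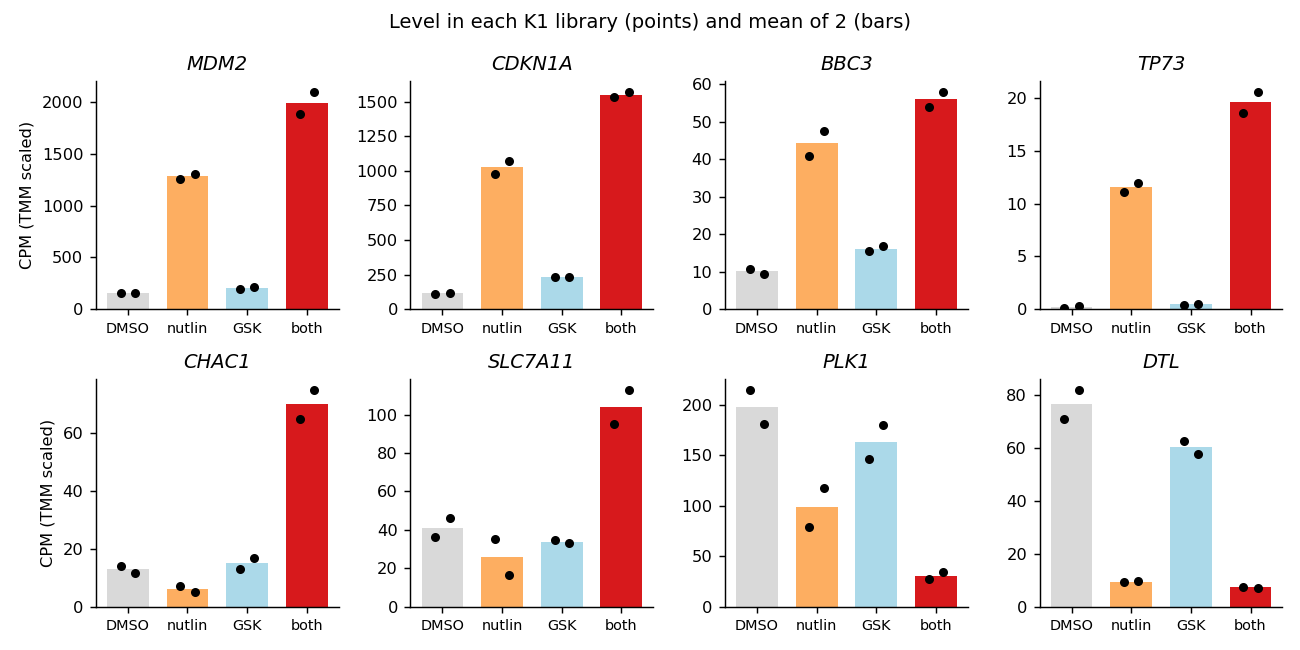
CPM (counts scaled by TMM to a common library size) of 8 genes in the 8 K1 libraries, by treatment, with points for libraries and bars for the mean of 2. *MDM2*, *CDKN1A*, *BBC3*, *TP73* and *CHAC1* are higher and *PLK1* and *DTL* lower in both combination libraries than in both GSK2830371 libraries.

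The apoptosis genes called higher included members of the BCL2 family and death receptors. *BBC3*, which encodes the BH3-only protein PUMA, stood at 15.5 and 16.8 CPM under GSK2830371 and at 54 and 57.9 CPM under the combination, a log2 fold change of 1.79 ± 0.0899 (adjusted p = 5.974e-09, edgeR quasi-likelihood test, Benjamini-Hochberg). *PMAIP1*, which encodes the BH3-only protein NOXA, stood at 16.5 and 19.4 against 36.2 and 39.4 CPM, a log2 fold change of 1.08 ± 0.091. For both genes the libraries of the groups were fully apart. *BCL2*, which restrains apoptosis, fell from 13.6 and 14.7 to 8.27 and 8.43 CPM, by a log2 change of -0.76. *BCL2L1*, another restraining member, rose by 0.72. *BAX* and *MCL1* had log2 fold changes of 0.43 and 0.11 and were not called. Of 14 genes of the BCL2 family tested, 3 were upregulated and 1 was downregulated, with a median of 0.17, against 6.30% and 6.75% of all genes. All 3 upregulated genes also stand on the p53 target list, and of the 10 not shared with it 0 were upregulated and 1 was downregulated (median -0.05). Without GSK2830371 replicate 2 the downregulated genes numbered 3, and with the GC trend removed the upregulated genes numbered 5.

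Death receptors and their partners made up 13 genes, of which 5 were upregulated and 0 downregulated (median 0.27), shares of 38.5% and 0% against 6.30% and 6.75% of all genes. The p53 target list holds 4 of the 5, and of the 9 genes not shared with it 1 was upregulated (median 0.14). *FAS*, the receptor of FAS ligand, rose from 45.1 and 42.6 to 117 and 121 CPM. *TNFRSF10B*, a receptor of TRAIL, rose from 158 and 164 to 354 and 364 CPM, and *TNFRSF10A*, the other signalling TRAIL receptor, from 10.5 and 8.78 to 23 and 21.9 CPM. *TNFRSF10D*, a decoy receptor of TRAIL, rose from 389 and 387 to 634 and 623 CPM. The libraries of the groups were apart for all 4 receptors. The fifth gene, *CASP10*, an initiator caspase, had a log2 fold change of 1.03 and was chosen after its value was seen.

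The downregulated genes were rich in functions of DNA replication. All 45 listed genes of S phase entry and replication were tested, and 42 were downregulated and 0 upregulated, with a median log2 fold change of -1.77. The share downregulated was 93.3%, against 6.75% of all genes. The median was -2.49 for E2F factors and cyclins (8 of 9 downregulated), -2.18 for origin licensing (17 of 17) and -1.36 for polymerases and nucleotide supply (17 of 19). In bulk RNA, fewer cells of a type and less RNA per cell cannot be told apart. *DTL*, which guides the destruction of the licensing factor CDT1 and of p21, stood at 62.7 and 57.9 CPM under GSK2830371 and at 7.68 and 7.28 CPM under the combination. Its log2 fold change was -3.01 ± 0.0921 (adjusted p = 7.578e-11, edgeR quasi-likelihood test, Benjamini-Hochberg), and both combination libraries lay far under both others.

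Since S phase genes fell together, the promoter of *DTL* is shown as an example, as the 250 bases before its start on the plus strand at chr1:212208840-212209089 in GRCh37. The sequence is from RefSeq (GRCh38.p14 table), and its GRCh37 position was found by an exact match of the 250 bases. Capitals mark a match to TTTNNCGC, a form of the E2F element, which ends at the last base before the start.
DTL: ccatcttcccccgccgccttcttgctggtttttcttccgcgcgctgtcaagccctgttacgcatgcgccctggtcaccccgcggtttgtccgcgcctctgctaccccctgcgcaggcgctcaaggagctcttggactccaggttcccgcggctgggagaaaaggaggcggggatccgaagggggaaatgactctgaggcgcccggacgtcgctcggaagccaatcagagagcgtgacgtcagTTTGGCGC
On both strands, TTTNNCGC occurred in 5.92% of 35116 promoter windows of this length over all genes. It occurred in 20 of 46 windows (43.5%) of the 36 S phase genes with a promoter in the table, in 10.5% of windows of mitosis genes and in 15.1% of those of p53 targets, which rose. A match is a description of the letters only.

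Several S phase genes nearly disappeared. *E2F2*, an activating E2F factor, stood at 3.85 and 4.56 CPM under GSK2830371 and at 0.186 and 0.0907 CPM under the combination. *FAM111B*, a protease gene of replicating cells, fell from 22.4 and 23.2 to 1.21 and 1.27 CPM, a log2 fold change of -4.19 ± 0.149. *CCNE2*, a cyclin that drives entry into S phase, fell from 11.3 and 12.3 to 0.898 and 0.876 CPM. None of the combination libraries overlapped the GSK2830371 libraries in these genes. *CDT1*, which loads the replicative helicase, fell from 48.4 and 43.3 to 5.92 and 6.32 CPM. *E2F8*, a repressive E2F factor, fell from 9.23 and 10.2 to 1.36 and 1.42 CPM. *CCND1*, a cyclin of early G1, was at 686 and 622 against 730 and 696 CPM (log2 fold change 0.12) and was not called.

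Genes of mitosis fell nearly as a whole. Of 53 listed genes tested, 52 were downregulated and 0 upregulated, with a median of -1.65. That is 98.1% downregulated, against 6.75% of all genes. All 16 kinases and cyclins were downregulated (median -1.73), as were all 26 genes of the kinetochore and spindle (median -1.60) and 10 of 11 of anaphase and chromosome condensation (median -1.64). The exception was *PTTG1*, which encodes securin, with a log2 fold change of -0.52.

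*PLK1*, a kinase of mitotic entry and spindle assembly, stood at 146 and 180 CPM under GSK2830371 and at 27.7 and 34 CPM under the combination, a log2 fold change of -2.40 ± 0.166 (adjusted p = 1.102e-07, edgeR quasi-likelihood test, Benjamini-Hochberg). The lower GSK2830371 library was still far above both combination libraries. *CCNB2*, a B-type cyclin, stood at 36.6 and 46.3 against 10.9 and 12.8 CPM, a log2 fold change of -1.81 ± 0.144. Replicate 1 of either group was lower than replicate 2 in both genes, and the summed level of the mitosis list was 4130 and 5110 CPM under GSK2830371 and 1370 and 1660 CPM under the combination. *HJURP*, the chaperone that deposits the centromeric histone, stood at 69.1 and 83.3 against 11 and 12 CPM, a log2 fold change of -2.73 ± 0.124. *CENPA*, that histone, stood at 12.7 and 16.3 against 2.69 and 3.29 CPM. For these genes too the groups were apart. *CCNA2*, a cyclin of S phase and G2, fell from 45.8 and 57.8 to 8.27 and 10.5 CPM. *KIF20A*, a kinesin of cytokinesis, fell from 51.8 and 66.4 to 13.9 and 14.7 CPM. The proliferation marker *MKI67* fell from 356 and 450 to 82.1 and 98.6 CPM.

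The promoters of *PLK1* and *CCNB2* are shown because mitosis genes fell together and because these carry the element pair for which such genes are known. They are the 250 bases before each start on the plus strand of GRCh37, at chr16:23689960-23690209 for *PLK1* and chr15:59397095-59397344 for *CCNB2*, again from RefSeq with the position found by exact match. Capitals mark TTTGAA, the CHR element, and CCAAT, the box of the factor NF-Y, in the plus strand direction.
PLK1: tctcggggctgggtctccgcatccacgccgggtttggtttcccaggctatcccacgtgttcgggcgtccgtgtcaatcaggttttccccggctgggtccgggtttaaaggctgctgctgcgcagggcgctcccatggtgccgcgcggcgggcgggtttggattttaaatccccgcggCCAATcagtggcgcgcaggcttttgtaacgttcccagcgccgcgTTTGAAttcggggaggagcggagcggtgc
CCNB2: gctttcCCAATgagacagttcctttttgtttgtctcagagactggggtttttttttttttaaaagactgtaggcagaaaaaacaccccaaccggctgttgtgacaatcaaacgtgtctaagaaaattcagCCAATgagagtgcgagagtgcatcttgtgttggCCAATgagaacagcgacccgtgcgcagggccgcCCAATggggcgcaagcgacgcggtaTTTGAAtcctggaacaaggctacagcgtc
In both promoters TTTGAA lay 29 to 24 bases before the start. The nearest marked CCAAT lay 73 to 69 bases before the start in *PLK1* and 54 to 50 in *CCNB2*, without overlap of the motifs. On both strands, TTTGAA occurred in 28 of 57 windows (49.1%) of the 46 mitosis genes matched, in 2.17% of windows of S phase genes, in 11.3% of those of p53 targets and in 13.3% of all windows. CCAAT occurred in 40 of the 57 windows (70.2%), in 26 of 46 windows of S phase genes (56.5%), in 34% of those of p53 targets and in 32% of all windows.

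Genes of DNA break repair followed the replication genes. Of 20 tested, 19 were downregulated and 0 upregulated (median -1.35), and 95% downregulated compares with 6.75% of all genes. *EXO1*, an exonuclease that resects DNA ends, fell from 45.1 and 46 to 9.01 and 8.79 CPM. *BARD1*, the partner of BRCA1, fell from 11.6 and 13.4 to 1.64 and 1.81 CPM. *RAD54L*, a motor of homologous recombination, and *FANCI*, of the Fanconi anemia pathway, had log2 fold changes of -2.29 and -1.07. *FANCC*, another Fanconi gene and listed as a p53 target of repair, fell from 14.2 and 15.2 to 6.47 and 7.59 CPM, the only downregulated gene of the p53 target list. Without GSK2830371 replicate 1, and with the GC trend removed, that list had 2 downregulated genes.

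Of 18 genes for subunits of the DREAM and RB complexes and related inhibitors, 5 were downregulated and 0 upregulated (median -0.30), which is 27.8% lower against 6.75% of all genes. *CDKN2C*, a CDK4 and CDK6 inhibitor, fell from 32.6 and 42 to 10.1 and 11.5 CPM. *RBL1*, the pocket protein p107, and *LIN9*, a core subunit, had log2 fold changes of -1.11 and -1.04. *RBBP4*, a histone-binding subunit, had -0.56 and was not called, but was called with the GC trend removed (-0.69) and without combination replicate 1 (-0.59).

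Among 12 genes of damage kinases and their partners, 1 was upregulated and 3 were downregulated (median -0.15), shares of 8.33% and 25% against 6.30% and 6.75% of all genes. *H2AFX*, the histone variant marked at breaks and a substrate of PPM1D, fell from 166 and 165 to 62.7 and 64.1 CPM. *CHEK1*, the checkpoint kinase of replication stress, fell from 20.3 and 22.1 to 8.73 and 8.7 CPM, and *MDC1*, a scaffold at breaks, by a log2 change of -1.01. In all 3 genes the groups were apart. *ATM*, the kinase that responds to breaks, stood at 42.7 and 54 against 73.3 and 84.3 CPM, a log2 fold change of 0.71. Its call was lost with the GC trend removed (0.46) and without GSK2830371 replicate 1 (0.55). *PRKDC*, the kinase of end joining, had -0.56 and was called only with the trend removed (-0.67) and without GSK2830371 replicate 1 (-0.65), and without that replicate the downregulated genes of the list numbered 5.

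The integrated stress response is the program in which phosphorylation of eIF2alpha slows translation while the factor ATF4 is made and activates genes of amino acid supply. Of 62 listed genes, 59 were tested, and 16 were upregulated and 1 was downregulated, with a median of 0.27 against 0.00 over all genes. These are 27.1% and 1.69% of the genes tested, against 6.30% and 6.75% of all genes. The share of upregulated genes was highest for transcription factors (5 of 10, median 0.61) and for secreted factors and other targets (7 of 14, median 0.69). It was 2 of 9 for amino acid transporters (median 0.27), 1 of 13 for amino acid and one-carbon enzymes (median 0.05) and 1 of 13 for tRNA charging and export (median 0.21). For the enzymes and for tRNA charging and export, 7.69% lies near the 6.30% of all genes. Without 2 genes that also stand on the p53 target list, 14 of 57 were upregulated.

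*ATF4* stood at 433 and 466 CPM under GSK2830371 and at 749 and 782 CPM under the combination, a log2 fold change of 0.77 ± 0.0594 (adjusted p = 3.211e-07, edgeR quasi-likelihood test, Benjamini-Hochberg). The groups were apart. *DDIT3*, the ATF4 target that encodes CHOP, stood at 11.5 and 13.5 against 25 and 24.2 CPM, a log2 fold change of 0.97. *ATF3*, a stress factor that p53 also activates, stood at 1.56 and 0.832 against 4.27 and 4.17 CPM, with a log2 fold change of 1.81 ± 0.303 and a wide gap between the GSK2830371 replicates. *CHAC1*, an enzyme that degrades glutathione, stood at 13 and 16.9 against 64.7 and 74.9 CPM, a log2 fold change of 2.23 ± 0.132. Both combination libraries lay well above both others.

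The promoter of *CHAC1* is given as an example of a stress response gene that rose, as the 250 bases before its start on the plus strand at chr15:41245419-41245668 in GRCh37 (RefSeq, position by exact match). Capitals mark TTGCATCA, which on the minus strand reads as a match to TGATGNAA, a form of the element bound by ATF4 with its partners.
CHAC1: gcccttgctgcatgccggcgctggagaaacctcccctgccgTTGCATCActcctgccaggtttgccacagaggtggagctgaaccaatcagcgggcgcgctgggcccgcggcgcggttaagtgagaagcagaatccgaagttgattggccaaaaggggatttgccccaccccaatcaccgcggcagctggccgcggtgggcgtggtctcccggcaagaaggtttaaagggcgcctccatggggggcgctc
The match lay 209 to 202 bases before the start, and TGATGNAA occurred on either strand in 3.14% of all promoter windows. Fewer than 80% of the listed stress response genes had a promoter in the table, so no share is given for them.

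*SLC7A11*, the cystine transporter, stood at 34.7 and 33 CPM under GSK2830371 and at 95.3 and 113 CPM under the combination, a log2 fold change of 1.62 ± 0.213. *ADM2*, a secreted peptide, stood at 19.2 and 15.4 against 42.3 and 46.5 CPM, and *CTH*, an enzyme of cysteine synthesis, at 6.36 and 6.49 against 11.5 and 12.5 CPM. All 3 genes were higher in both combination libraries. *GDF15*, a secreted factor shared with the p53 targets, rose from 0.477 and 0.665 to 5.23 and 5.83 CPM. *SLC7A1*, a transporter of arginine and lysine, was the only downregulated gene of the list, at 434 and 439 against 285 and 294 CPM. Its log2 fold change of -0.59 sits near the threshold, and the call was lost under other scaling (-0.55 by library size), without combination replicate 1 (-0.57), without GSK2830371 replicate 2 (-0.58) and with the GC trend removed (-0.52).

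RNA for the machinery upstream of ATF4 gave no call in the main test. Of 17 genes of eIF2alpha kinases, phosphatase subunits and initiation factors, the quasi-likelihood test of edgeR with Benjamini-Hochberg called 0 in either direction. Over all genes 6.30% and 6.75% were called, so 0 of 17 is not far from those shares. At an unadjusted p under 0.05 were 11 of the 17, against 7619 of all 15900 genes tested. DESeq2 called 1 of the 17 higher and 0 lower. The median of the list was -0.06. *EIF2AK1*, the heme-regulated kinase HRI, stood at 114 and 118 CPM under GSK2830371 and at 115 and 121 CPM under the combination. *HMOX1*, which degrades heme, stood at 864 and 659 against 889 and 722 CPM, and its groups overlapped.

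Further stress programs gave these calls. Of 28 NRF2 targets, 3 were upregulated and 1 was downregulated (median 0.12), against the background shares of 6.30% and 6.75%. *SLC7A11*, shared with the stress response list, is among the 3, and 2 of 27 were upregulated without it. *AKR1B10*, an aldo-keto reductase, rose by 1.59 in log2 units. *AKR1C1*, its relative, had 0.59, which was not called without combination replicate 2 (0.52), without GSK2830371 replicate 1 (0.52) or with the GC trend removed (0.51). *ABCC3*, an export pump, had -0.60, which was not called without combination replicate 2 (-0.50), without GSK2830371 replicate 1 (-0.46) or with the trend removed (-0.48). *FTH1*, the ferritin heavy chain, had 0.12.

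Of 17 heme and iron genes, 1 was upregulated and 2 were downregulated, shares of 5.88% and 11.8% against 6.30% and 6.75% of all genes. *FLVCR2* and *ABCG2*, which encode transporters of heme and porphyrins, had log2 fold changes of -0.76 and -0.65. *BACH1*, a repressor that senses heme, had 0.60, and its call was lost with the trend removed (0.45) and without GSK2830371 replicate 1 (0.52).

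Of 25 genes of the endoplasmic reticulum stress response, 3 were upregulated and 0 downregulated (median 0.23), shares of 12% and 0% against 6.30% and 6.75% of all genes. *ERO1LB*, an oxidase of disulfide formation, rose from 14.4 and 15.5 to 31.2 and 28.6 CPM, and *ERN1*, the sensor IRE1, by 0.68 in log2 units. *HSP90B1*, a chaperone, had 0.62 and was not called with the trend removed (0.48) or without GSK2830371 replicate 1 (0.55). The chaperone *CALR* had 0.15. Of 27 lysosome and autophagy genes, 2 were upregulated and 0 downregulated (median 0.08), and 7.41% lies close to the 6.30% of all genes. These were *GABARAPL1*, which acts in autophagosome formation and went from 13.7 and 13.1 to 25.3 and 26.6 CPM, and *DRAM1*, a lysosomal membrane gene that p53 activates, with 0.80.

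Genes of cholesterol synthesis and uptake were mostly not called. Of 25 tested, the quasi-likelihood test of edgeR with Benjamini-Hochberg called 0 upregulated and 1 downregulated, and the median was -0.27. The 4% downregulated lies near the 6.75% of all genes, and the 0% upregulated compares with 6.30%. At an unadjusted p under 0.05 were 18 of the 25, against 7619 of all 15900 genes tested. DESeq2 called 0. The summed level of the 25 genes was 5180 and 5920 CPM under GSK2830371 and 4420 and 4510 CPM under the combination.

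Some cytokine genes rose. Of 20 NF-kB targets, 4 were upregulated and 1 was downregulated (median 0.11), against 6.30% and 6.75% of all genes, and without combination replicate 1 the upregulated genes numbered 2. *IL1A*, which encodes interleukin 1 alpha, rose from 17 and 20.2 to 47.9 and 47.1 CPM. *CSF2*, a colony stimulating factor, and *TNF*, the tumor necrosis factor, had log2 fold changes of 0.84 and -0.80. *BIRC3*, an inhibitor of apoptosis, had 0.84 and was not called without GSK2830371 replicate 1 (0.49), without combination replicate 1 (0.76) or with the trend removed (0.60). *IL1B*, which encodes interleukin 1 beta, stood at 901 and 846 against 1320 and 1230 CPM, a log2 fold change of 0.54 that was called without GSK2830371 replicate 1 (0.59), without combination replicate 2 (0.60) and with the trend removed (0.63).

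Of 21 interferon-stimulated genes, 2 were upregulated and 2 were downregulated (median -0.04), shares of 9.52% each way that lie near the 6.30% and 6.75% of all genes. *IFIT2*, an antiviral gene, had a log2 fold change of 0.96. *OAS3*, a synthetase of the antiviral response, fell from 83.6 and 87.3 to 47.5 and 45.9 CPM. *IFI44* had 0.68 and was not called without GSK2830371 replicate 1 (0.55) or with the trend removed (0.58). *OASL* had -0.65 and was not called without GSK2830371 replicate 1 (-0.58), without combination replicate 1 (-0.56) or with the trend removed (-0.51).

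Of 23 genes of MAPK output and immediate early response, 1 was upregulated and 1 was downregulated (median 0.05), near the 6.30% and 6.75% of all genes. Without GSK2830371 replicate 2 these counts were 0 and 2, and 2 were upregulated without GSK2830371 replicate 1 or with the trend removed. *MYC*, the growth factor-driven transcription factor, fell from 74 and 61.5 to 42.2 and 35.6 CPM. *FOSB*, a subunit of AP-1, had 0.67, and was not called without GSK2830371 replicate 2 (0.54). Of 9 genes of the EGF family, the quasi-likelihood test of edgeR with Benjamini-Hochberg and DESeq2 each called 0. At an unadjusted p under 0.05 were 5 of the 9, against 7619 of all 15900 genes tested. *EGFR*, the receptor, stood at 178 and 183 against 182 and 180 CPM. Of 30 ribosomal protein genes the same tests called 0, with 3 at an unadjusted p under 0.05 and a median of 0.01.

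Thyroid genes gave 3 upregulated and 1 downregulated of 9 (median 0.02), shares of 33.3% and 11.1% against 6.30% and 6.75% of all genes, and without combination replicate 2 the upregulated genes numbered 1. *TG* had a log2 fold change of 0.81 with replicates close together. *HHEX*, a factor of the thyroid bud, fell from 3.05 and 2.49 to 1.42 and 1.15 CPM. *DUOX1*, which makes peroxide for hormone synthesis, had 0.60 and was not called without combination replicate 2 (0.37) or GSK2830371 replicate 2 (0.52). *SLC5A5*, the iodide transporter, rested on 2 and 4 counts under GSK2830371 and on 15 and 13 under the combination. Its fitted log2 change of 2.09 was not called without combination replicate 1 (1.97) or 2 (2.21), nor without GSK2830371 replicate 1 (1.66) or 2 (2.68).

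Several defining markers of leukocytes and endothelium had few or no counts. Of 17 markers of fibroblasts, endothelium and leukocytes, 11 were tested, and 0 were upregulated and 1 downregulated (median -0.01), and 9.09% lies near the 6.75% of all genes. Their summed level was 74100 CPM in each GSK2830371 library and 73500 and 71100 CPM under the combination, of which *FN1*, which thyroid carcinoma cells also express, was the most abundant. The leukocyte marker *PTPRC* had 0 and 0 counts under GSK2830371 and 2 and 1 under the combination, and *CD3E* and the endothelial *CDH5* had 0 in all 4 libraries. The leukocyte markers summed to 59 and 63.9 CPM under GSK2830371 and to 61.5 and 68.6 CPM under the combination, nearly all from *CD68*, a lysosomal protein of macrophages that is not restricted to them. Endothelial markers stayed under 1 CPM in sum. *COL1A1*, a collagen of fibroblasts, fell from 2.13 and 2.23 to 0.712 and 0.876 CPM. Of 5 epithelial genes, the quasi-likelihood test of edgeR with Benjamini-Hochberg and DESeq2 each called 0. At an unadjusted p under 0.05 were 2 of the 5, against 7619 of all 15900 genes tested. The keratin *KRT8* stood at 833 and 771 against 651 and 613 CPM, while *CDH1*, which encodes E-cadherin, had 0, 0, 0 and 1 counts.

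**Figure D3:**
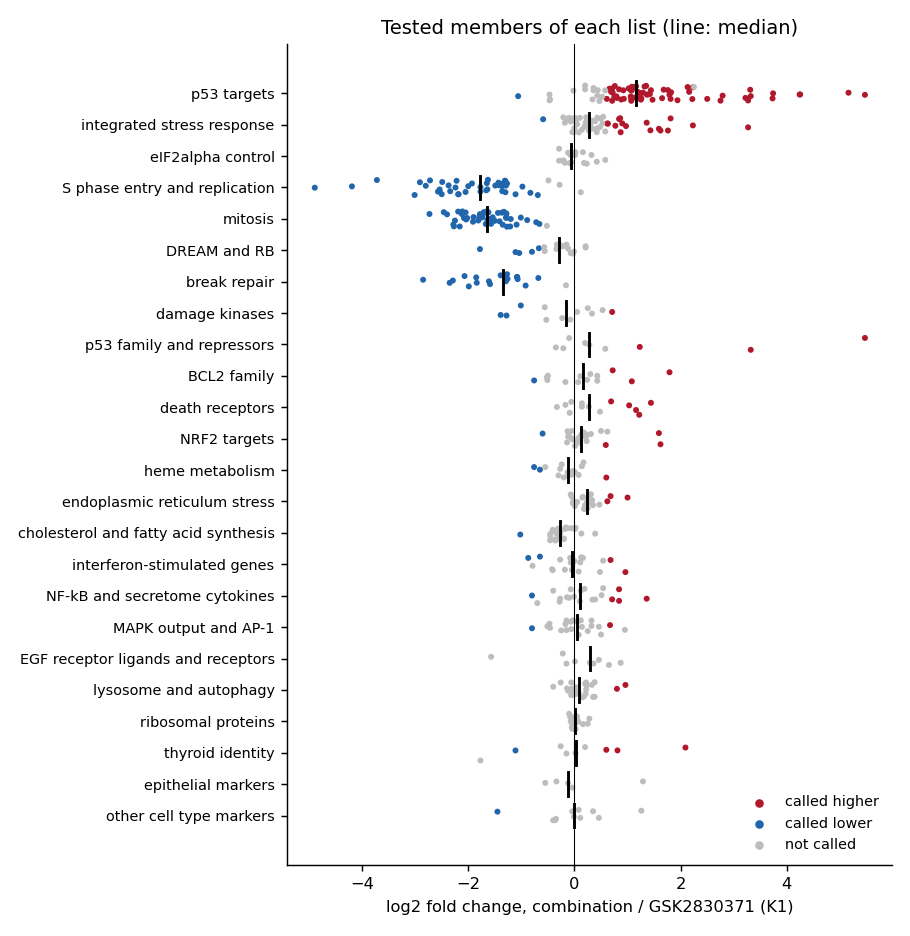
Log2 fold change of the combination against GSK2830371 in K1 (x axis) for the tested members of 24 gene lists, with a point for each gene coloured by its call and a line at the median of each list. The medians run from -1.77 for S phase entry and replication to 1.15 for p53 targets.

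Outside the lists, the gene rule named further large changes. *DSC3*, which encodes the desmosomal cadherin desmocollin 3, had 8 and 14 counts under GSK2830371 and 212 and 245 under the combination, a log2 fold change of 4.27. *CCL3*, a chemokine, went from 0.732 and 0.299 to 6.01 and 4.56 CPM. Both genes were low in both GSK2830371 libraries. *ABCA13*, a large lipid transporter, rose from 1.59 and 1.9 to 6.66 and 7.68 CPM. *ZNF367*, a zinc finger gene of dividing cells, fell from 14.3 and 11.8 to 0.743 and 0.786 CPM, and *WDR76*, which acts on damaged chromatin, from 29.7 and 27.2 to 3.07 and 2.9 CPM. *LMNB1*, the nuclear lamin whose loss marks senescent cells, fell from 87.6 and 96.7 to 12.3 and 13.7 CPM.

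Whether GSK2830371 alters the response of K1 to nutlin was read from nutlin against DMSO, a comparison that shares no library with the one above. Nutlin without GSK2830371 upregulated 611 genes (3.84%) and downregulated 863 (5.43%). Upregulated with and without GSK2830371 were 391 genes, which is 39% of the 1002 and 64% of the 611. Downregulated in both settings were 649 genes, 60.5% of the 1073 and 75.2% of the 863. The log2 fold changes correlated at 0.821 (Pearson) and 0.666 (Spearman) across 12544 genes, which are not independent. Called in opposite directions were 4 genes, all higher with GSK2830371 and lower without it. These were *CHAC1*, *SLC7A11*, *INHBE* and *GABRG1*, a receptor subunit gene chosen after its values were seen (0.75 with and -0.83 without).

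p53 targets had median nutlin effects of 1.15 with and 1.08 without GSK2830371. The medians of S phase genes were -1.77 and -1.81, and those of break repair genes -1.35 and -1.66. For *DTL* the nutlin effect was -3.01 in both settings, and the DMSO libraries (71.2 and 82.2 CPM) fell to 9.22 and 9.78 CPM with nutlin alone. Mitosis genes had a median of -1.65 with and -1.14 without GSK2830371, and stress response genes 0.27 and -0.26.

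The interaction, which is the nutlin effect with GSK2830371 minus that without it, tests such differences. Of 15900 genes, 284 (1.79%) had a called positive interaction and 104 (0.654%) a called negative interaction. Upregulated with GSK2830371 and not called without it were 607 genes, of which 123 had a called positive interaction. Downregulated with it and not called without it were 424 genes, of which 26 had a called negative interaction. Most genes called only with GSK2830371 thus had no called difference between the settings. Among integrated stress response genes 18 of 59 had a positive and 0 a negative call, with a median of 0.56, and for mitosis 24 of 53 genes had a negative call, with a median of -0.53. p53 targets had 3 positive calls and 1 negative call among 80, with a median of 0.01.

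These counts hang on single libraries. Without nutlin replicate 2, all genes together had fewer positive calls than the stress response list above, and fewer negative calls than the mitosis list. Positive calls numbered 131 without GSK2830371 replicate 1, 584 without GSK2830371 replicate 2, 450 without nutlin replicate 1, 13 without nutlin replicate 2 and 35 without combination replicate 2. Negative calls numbered 63 without DMSO replicate 2, 7 without nutlin replicate 2, 57 without combination replicate 1 and 26 without combination replicate 2. With the GC and length trend removed, 35 positive and 47 negative calls were left, and scaling by library size alone gave 404 and 77.

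*CHAC1* stood at 14.1 and 11.8 CPM in DMSO and at 7.03 and 5.06 CPM under nutlin, and nutlin alone thus lowered it by a log2 change of -1.10, where the same drug raised it by 2.23 in the presence of GSK2830371. Its interaction was 3.33 ± 0.209 (adjusted p = 8.474e-06, edgeR quasi-likelihood test, Benjamini-Hochberg). The combination libraries were the highest and the nutlin libraries the lowest of the 8. *SLC7A11* stood at 36.5 and 46 CPM in DMSO and at 35.1 and 16.8 CPM under nutlin, and its interaction was 2.30 ± 0.308. Nutlin replicate 2 was the lowest of the 8 libraries and replicate 1 lay among the DMSO and GSK2830371 libraries. *ATF4* had nutlin effects of 0.77 with and -0.23 without GSK2830371, an interaction of 1.00 ± 0.0839. The interactions of *CHAC1*, *SLC7A11* and *ATF4* stayed called in every alternative run.

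*ADM2* had an interaction of 1.69 that also stayed called in every alternative run. The interaction of *DDIT3* was 0.90 and that of *CTH* 1.41, and neither was called without nutlin replicate 2 (0.91 and 1.14), where the value of *DDIT3* hardly moved. *INHBE*, a secreted inhibin subunit, stood at 0.7 and 1.2 against 1.46 and 1.96 CPM, a log2 fold change of 0.86 that was not called without combination replicate 2 (0.62) or GSK2830371 replicate 1 (0.51). Its interaction was 2.58, and was not called without nutlin replicate 2 (2.16) or combination replicate 2 (2.35). *PMAIP1* was a p53 target with a positive interaction, as its nutlin effect was 1.08 with and 0.10 without GSK2830371 (interaction 0.97). *BTG2* had a negative one (-0.77), which was not called without nutlin replicate 2 (-0.71).

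*PLK1* stood at 215 and 181 CPM in DMSO and at 79 and 118 CPM under nutlin, and the fall with nutlin was thus deeper in the presence of GSK2830371. Its interaction of -1.40 (adjusted p = 0.007218, edgeR quasi-likelihood test, Benjamini-Hochberg) was not called without nutlin replicate 2 (-1.08). All 4 libraries without nutlin lay above the nutlin libraries, and these above the combination libraries. *HJURP* had effects of -2.73 with and -1.41 without GSK2830371, and its interaction of -1.32 stayed called in every alternative run. *KIF20A* (-1.23) was not called without nutlin replicate 2 (-0.97), and *CENPA* (-1.20) without nutlin replicate 2 (-0.98) or combination replicate 2 (-1.35).

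**Figure D4:**
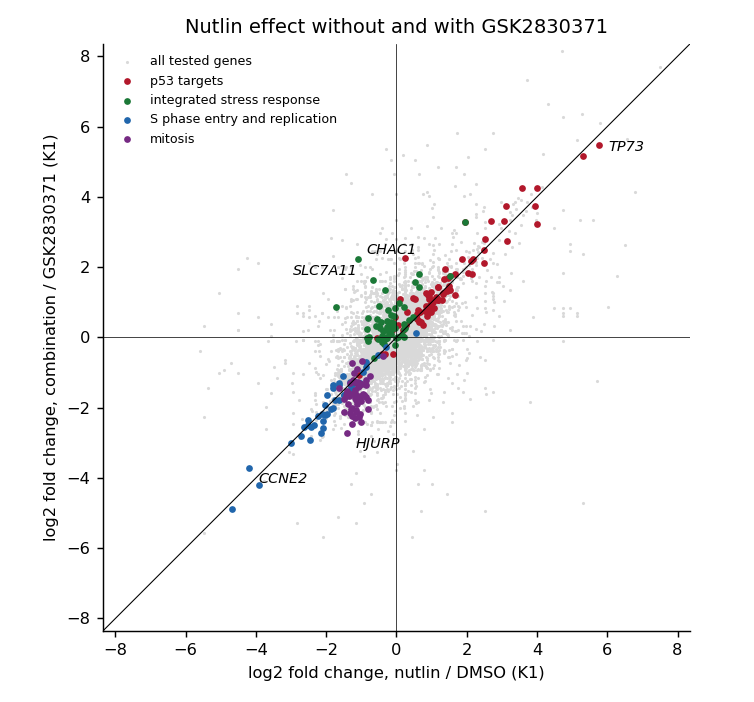
Log2 fold change of nutlin against DMSO (x axis) and of the combination against GSK2830371 (y axis) in K1 for each gene, with p53 targets, integrated stress response, S phase and mitosis genes coloured and the diagonal drawn where both are equal. Mitosis genes have medians of -1.14 and -1.65 on the axes, and p53 targets 1.08 and 1.15.

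In TPC1, the other thyroid carcinoma line, the same comparison upregulated 3255 genes (19.4%) and downregulated 2860 (17.1%) of 16738 in a fit of all 16 libraries. Of the genes upregulated in K1, 626 were upregulated in TPC1 as well, 62.5% of the K1 genes and 19.2% of the TPC1 genes. Downregulated in both lines were 828, 77.2% and 29% of each list. Opposite calls were made for 38 genes, and the log2 fold changes correlated at 0.691 (Pearson) across 12544 genes, which are not independent. TPC1 libraries held 31578138 and 76648552 counts for GSK2830371 and 36878168 and 62853375 for the combination. Raw counts quoted for TPC1 therefore differ between replicates with depth. The variance between TPC1 replicates was 18.4 and 37.8 times that of counting alone in these groups, against 8.16 and 4.96 in K1.

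The difference of the fold changes, K1 minus TPC1, passed the test upward for 1920 genes (11.5%) and downward for 2106 (12.6%). It moved with the scaling, as library size alone gave 2892 positive and 1509 negative calls and shifted the median of all genes from -0.02 to 0.15. p53 targets rose less in K1, with a negative difference for 65 of 80 and medians of 1.15 in K1 and 2.37 in TPC1. Mitosis genes fell less in K1, with a positive difference for 52 of 53 and medians of -1.65 and -4.65. The medians of S phase genes were -1.77 and -2.65.

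*CDKN1A* had a difference of -3.47, *BBC3* of -1.77 and *MDM2* of -1.73, so the increase of each was smaller in K1. *HJURP* went from 98.2 and 103 CPM to 0.393 and 0.746 CPM in TPC1, deeper than in K1 by a difference of 4.63. *NEK2*, a kinase of centrosome separation, went from 1839 and 4200 counts to 24 and 45 in TPC1, whereas its log2 fold change in K1 was -1.37. Both mitosis genes thus kept more of their RNA in K1.

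*CEACAM1*, a cell adhesion gene, stood at 1.72 and 1.53 CPM under GSK2830371 and at 8.8 and 8.76 CPM under the combination in K1. In TPC1 it went from 0.209 and 0.166 to 106 and 112 CPM, and the difference was -6.80. *UNC13A*, a gene of vesicle release, stood at 5.12 and 6.12 against 8.3 and 8.58 CPM in K1, a log2 fold change of 0.59 that was not called without GSK2830371 replicate 1 (0.46) or combination replicate 2 (0.56). In TPC1 it went from 0.179 and 0.191 to 170 and 142 CPM. *TRIM22*, an antiviral gene that p53 activates, stood at 39.9 and 41.3 against 107 and 96.6 CPM in K1, and in TPC1 its counts went from 8 and 18 to 477 and 985. For all 3 genes, K1 started above and rose less than TPC1. *DSC3* had 0 and 4 counts in the GSK2830371 libraries of TPC1 and 0 and 0 in the combination, so no fold is given for TPC1.

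**Figure D5:**
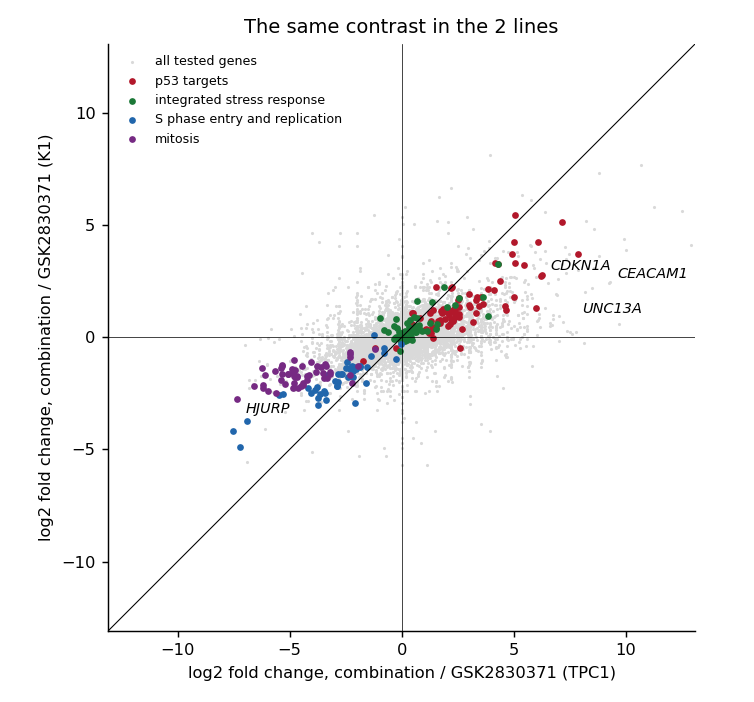
Log2 fold change of the combination against GSK2830371 in TPC1 (x axis) and K1 (y axis) for each gene, with p53 targets, integrated stress response, S phase and mitosis genes coloured and the diagonal drawn where both are equal. Median changes of mitosis genes are -4.65 in TPC1 and -1.65 in K1.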

How the data were processed

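RNA-seq data of K1 and TPC1 cells were used as deposited. The values are raw read counts per gene that the authors made with TopHat2 2.0.13, Bowtie2 2.2.3.0, SAMtools 1.3.1, Picard 1.129 and HTSeq 0.6.1 on GRCh37, per the submitters' processing notes. Alignment and counting were not repeated. TPC1 columns numbered 3 were matched only to their treatment.

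Genes above 0.1 CPM in at least 2 libraries were kept (15900 of 25369 in K1). The 8 K1 libraries, with 28888686 to 37161241 counts, entered a joint fit in edgeR 4.0.16 after TMM scaling (quasi-likelihood, 4 residual degrees of freedom) with limma 3.58.1 in R 4.3.3. Line differences came from a fit of all 16 libraries over 16738 genes. A call needs a Benjamini-Hochberg adjusted p under 0.05 and a fold change above 1.5. Alternatives used DESeq2 1.42.0, other scaling and filters, fits of fewer libraries, removal of a GC and length trend (over 15195 genes, 95.6%), a replicate block, and leaving out each library. Tables and plots used Python 3.11.15. The steps were tested on simulated data.

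Genes were named by a rule: genes the study follows, called members with the largest changes and the most abundant member of each list, and the largest changes, interactions and line differences among well-expressed genes. Members and the 24 lists were chosen with earlier results of these data known. A few genes that the rule or lists hold are not reported here.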

Additional observations from a re-analysis of the deposited data

Results flagged for a closer look

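The results gathered here are those in which the effect of nutlin differed between 2 settings by a test of the difference itself (edgeR quasi-likelihood test, Benjamini-Hochberg). With GSK2830371 against without it, 284 genes had a more positive and 104 a more negative nutlin effect in K1. Among the genes that the study follows, those with the largest interactions and those that moved opposite to nutlin alone, the log2 difference was positive for *CHAC1* (3.33), *INHBE* (2.58), *SLC7A11* (2.30), *ADM2* (1.69), *CTH* (1.41), *ABCA13* (1.27), *ATF4* (1.00) and *DDIT3* (0.90). It was negative for *PIF1* (-1.78), *PLK1* (-1.40), *HJURP* (-1.32), *KIF20A* (-1.23) and *CENPA* (-1.20). Of these, *INHBE*, *CTH*, *DDIT3*, *PLK1*, *KIF20A* and *CENPA* were not called without nutlin replicate 2, as given above. *INHBE* and *CENPA* were also not called without combination replicate 2. *ABCA13* was not called without combination replicate 2 (1.17) or nutlin replicate 2 (1.10). *PIF1*, a helicase gene, was not called without combination replicate 1 (-1.79) or 2 (-1.76), without nutlin replicate 2 (-1.40) or with the GC trend removed (-1.60).

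Between the lines, 1920 genes had a more positive and 2106 a more negative fold change in K1 than in TPC1. Genes of the p53 network and the stress response with a negative difference in log2 units were *CDKN1A* (-3.47), *DDIT3* (-2.88), *ATF3* (-1.81), *BBC3* (-1.77), *MDM2* (-1.73), *PPM1D* (-1.16), *GDF15* (-1.02), *SESN2* (-0.81) and *TNFRSF10B* (-0.60). *ATF3* was not called without GSK2830371 replicate 1 of K1 (-1.28), and *GDF15* without GSK2830371 replicate 2 (-0.77) or combination replicate 1 (-0.97) of K1. *TNFRSF10B* sits near the threshold and was not called without GSK2830371 replicate 2 of K1 (-0.57), combination replicate 1 of TPC1 (-0.56) or GSK2830371 replicate 3 of TPC1 (-0.57).

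Among well-expressed genes named for the size of this difference were *NEK2* (4.84), *HJURP* (4.63), *UNC13A* (-9.09), *CEACAM1* (-6.80), *CSTA* (-5.31), *CDH10* (-4.87) and *TRIM22* (-4.69). *CSTA* and *CDH10* start from 1 and 10 and from 1 and 7 counts in the GSK2830371 libraries of TPC1, and without GSK2830371 replicate 3 of TPC1 their differences were -6.92 and -6.04. *LINC00890* (4.33) and *COL15A1* (-7.09) were named because K1 and TPC1 were called in opposite directions. The K1 call of *LINC00890* (1.39) was lost without combination replicate 1 (1.34) or 2 (1.44), without GSK2830371 replicate 1 (0.90) and with the GC trend removed (1.23), and that of *COL15A1* (-1.27) without combination replicate 1 (-0.78) or GSK2830371 replicate 2 (-1.18). In addition, *COL15A1* starts from 2 and 7 counts in TPC1. The line differences of this pair were 5.03 without GSK2830371 replicate 2 of K1 and -7.87 without combination replicate 2 of K1. Fitted differences of *DSC3* (7.96), *LGR5* (5.31), *GAS1* (4.74) and *ISLR2* (-4.29) rest on 0 or few counts in a TPC1 group and depend on the prior count, so they are no measure of size. *DSC3* was not called without GSK2830371 replicate 3 of TPC1 (4.27), *ISLR2* without that library (-2.72) or combination replicate 1 of TPC1 (-3.64), and *GAS1* without that GSK2830371 library (4.35) or combination replicate 1 (4.76) or 3 (4.69) of TPC1.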

How the results depend on the processing

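Counts for the combination against GSK2830371 stayed between 707 and 1145 upregulated and between 816 and 1101 downregulated genes over 17 alternatives, within 1.5 times of 1002 and 1073. Among longer lists, 63 to 66 p53 targets and 15 to 19 stress response genes were called higher, and 42 S phase and 50 to 52 mitosis genes lower. Smaller counts moved more: BCL2 genes from 3 to 5 higher and from 1 to 3 lower, NF-kB targets from 4 to 2 higher, thyroid genes from 3 to 1 higher, damage kinases from 1 to 0 or 2 higher and from 3 to 5 lower, and stress response genes from 1 to 0 lower. Of 123 named genes, 101 kept their side of the threshold in every alternative, and none reversed.

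Positive interactions, 284 as reported, ranged from 13 to 584 when a library was left out and numbered 35 with the GC and length trend removed. Negative ones, 104 as reported, ranged from 7 to 139 and numbered 47 with the trend removed. Scaling by library size alone moved the positive share of interaction calls from 73.2% to 84%. For K1 minus TPC1 it gave 2892 positive calls against 1920 and moved their share from 47.7% to 65.7%, and leaving out a library gave 1627 to 2026. The causes were not tested.

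Replicate numbers were not taken as a pairing of all K1 libraries. Replicate differences correlated at 0.331 between GSK2830371 and the combination and at 0.138 and 0.156 between nutlin and these, but at -0.318 to -0.253 with DMSO, across 12546 genes, which are not independent. With the replicate number as a block, 993 genes were upregulated and 1062 downregulated, the interaction was called for 264 and 102 genes and the line difference for 1893 and 2071.

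With 2 libraries a group, a fit that leaves a library alone in its group takes the spread from the rest. Genes at a few counts, such as *SLC5A5* and *KANK3*, are limited by depth.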

Other observations

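A few further genes gave values not described above. *LGR5*, a WNT-associated receptor of stem cells, fell in K1 from 28.9 and 31.8 to 15.1 and 13.9 CPM, a log2 fold change of -1.07, while its TPC1 counts went from 40 and 85 to 0 and 1. *CDH10*, a classical cadherin, rose in K1 by 3.02 in log2 units, and its TPC1 counts went from 1 and 7 to 573 and 1109. *CSTA*, a protease inhibitor of epithelia, had 0.79 in K1 and was not called there with the GC trend removed (0.53). *DDIT4*, an mTORC1 inhibitor named after its values were seen, rose from 39.8 and 49.7 to 125 and 144 CPM.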
